A study of Mus musculus with 2 samples.

Results

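The cytosolic ribosomal protein genes were described in total RNA sequencing of mouse granulocyte-monocyte progenitors, marrow precursors of the neutrophil and monocyte lineages. The genes were chosen by symbol, as protein-coding genes named Rpl, Rps or Rplp with a number, together with Rpsa. They came to 83 of 43346 annotated genes, of which 77 are core genes of the ribosome and 6 are paralogs that resemble a core gene. The core genes comprise 43 of the large subunit, 31 of the small subunit and 3 of the P stalk, the flexible arm on which elongation factors act. The study holds 2 libraries of a single group, from C57BL/6J males between 5 and 6 weeks old, with no treatment and no genetic change named in the labels. Input was 100 ng each, after removal of ribosomal RNA, and the labels number them as biological replicates. With no second group, no comparison between conditions was possible, and no statistical test was run. Values are given in each library, and any ± is an SD over both.

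A ribosome holds 1 copy of nearly every ribosomal protein, and each protein is made from a gene of its own. The genes are scattered over the genome, yet their messenger RNAs share short introns, snoRNAs within those introns, and a 5′ terminal oligopyrimidine tract (TOP). The TOP tract is a run of C and T that starts at the first base, and through it mTOR and the RNA-binding protein LARP1 set how much of the messenger RNA is translated. Because these messenger RNAs are short and abundant in the germline, they have been copied back into the genome many times, leaving processed pseudogenes. In blood formation the family is known for Diamond-Blackfan anaemia, a failure of red cell production in people who lack 1 working copy of a ribosomal protein gene.

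The start sites are shown first because they carry the signature by which the family is usually recognised. Starts and sequences were those of RefSeq on GRCm38.p6, which held an entry for 57 of the 77 core genes. Each line gives 30 bases from 15 before the start base to 14 after it, 5′ to 3′ on the strand of the gene, with the longest run of at least 8 pyrimidines near the start in capitals. The first 8 are the core genes of highest level whose run covers the start base, followed by Rps6, which encodes the subunit protein phosphorylated downstream of mTOR.
Rps24, chr14:24490663-24490692, plus strand: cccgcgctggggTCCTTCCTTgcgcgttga
Rplp2, chr7:141447636-141447665, plus strand: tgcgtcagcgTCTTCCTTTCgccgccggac
Rpl38, chr11:114668565-114668594, plus strand: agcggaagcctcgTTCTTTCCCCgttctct
Rpl7a, chr2:26910792-26910821, plus strand: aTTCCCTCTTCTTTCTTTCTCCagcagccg
Rps10, chr17:27635230-27635259, minus strand: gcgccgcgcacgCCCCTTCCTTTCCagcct
Rpl14, chr9:120571502-120571531, plus strand: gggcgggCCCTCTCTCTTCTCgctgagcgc
Rpl35, chr2:39005117-39005146, minus strand: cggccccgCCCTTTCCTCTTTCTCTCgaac
Rpl15, chr14:18270972-18271001, minus strand: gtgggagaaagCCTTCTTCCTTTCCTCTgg
Rps6, chr4:86857353-86857382, minus strand: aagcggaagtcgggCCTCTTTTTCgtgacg
The runs in these 9 windows were 9 to 21 bases long. By contrast, the 3 core genes of highest level with a RefSeq start had no run of 6 or more there.
Rpl36a, chrX:134585639-134585668, plus strand: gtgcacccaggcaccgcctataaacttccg
Rps3a1, chr3:86142654-86142683, minus strand: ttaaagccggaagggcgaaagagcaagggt
Rpl26, chr11:68901551-68901580, plus strand: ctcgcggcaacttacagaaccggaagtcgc
The annotated start is a single base, and annotations place it differently. The start of the leading GENCODE transcript lay 34 bases away in Rps3a1 and 17 in Rpl26, and at the same base in Rpl36a. In the 9 windows with a run it lay from 3 bases away in Rps24 to 73 in Rpl14 and 493 in Rpl35. Starts were not measured here, so no window shows that a messenger RNA has or lacks a tract.

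A run of at least 8 pyrimidines within 10 bases of the start was present in 26 of 57 core genes, or 45.6%. It was present in 13.1% of 7000 other protein-coding genes at or above 1 TPM (a level corrected for transcript length and scaled to a fixed sum per library) in both libraries, and in 13.7% of all 16316 protein-coding genes with an entry. A run that covered the start base itself was held by 15 core genes (26.3%) and by 3.56% of all genes, and the start base was C in 35.1% and 14.1%. Within 10 bases of the GENCODE start, 20 of 49 core genes (40.8%) had a run of at least 8, against 13.2% of all. Of other motifs searched on both strands of the 300-base promoters, which run from 250 bases before the start, CCGGAA, bound by ETS factors, was in 49.1% of core genes and in 34.3% of other expressed genes. ATGGCG, a motif of YY1, was in 26.3% and 19.0%. TATAAA, the TATA box, was in 8.77% and 6.19%. Levels were near each other with and without a run: the median was 389.3 and 421.8 TPM in the 26 with a run and 443.4 and 502.0 TPM in the 31 without. Across the 57, log2 TPM and run length had a Pearson r of -0.03 and -0.07, a description over genes that share libraries and annotation.

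**Figure D1:**
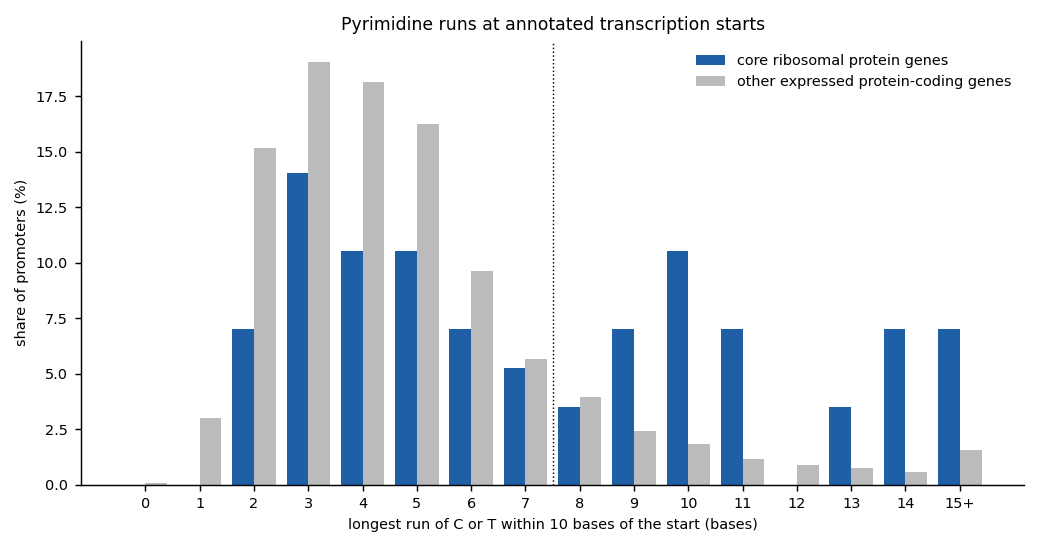
Share of promoters (%) by the longest run of C or T, in bases, within 10 bases of the annotated start, for 57 core ribosomal protein genes (blue) and 7000 other expressed protein-coding genes (grey). The dotted line separates runs of 8 or more, held by 45.6% of the core genes and 13.1% of the others; the last pair of bars holds 15 or more.

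All 77 core genes were at or above 10 TPM in both libraries, and 74 (96.1%) were at or above 100 TPM, a level reached by 1.24% of 21461 nuclear protein-coding genes. Of nuclear protein-coding TPM, the 83 members held 19.07% (replicate 1) and 18.73% (replicate 2). Of the 100 protein-coding genes of highest level, 51 were core genes in each library, and the first of them ranked 4th. As shares of counts, which are not corrected for the short length of these transcripts (median 751 nt against 2531 nt for expressed genes), the members held 7.02% and 6.48%. In bulk RNA, fewer cells of a type and less RNA per cell cannot be told apart.

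The median core gene stood at 399.6 TPM in replicate 1 and 495.6 in replicate 2 (447.6 ± 67.9, SD, n = 2). The median of all expressed protein-coding genes was 6.47 and 7.74. Part of the gap between the libraries is the scale: nuclear protein-coding genes took 19.07% of all TPM in replicate 1 and 22.84% in replicate 2, and after rescaling over those genes alone the core medians were 2096 and 2170.0. The large subunit median was 397.7 and 489.9 TPM and the small subunit median 398.9 and 502.9, a log2 difference of 0.01 ± 0.03 (SD, n = 2), which is within the SD between libraries. That difference depended on the summary: it was 0.15 with means in place of medians and -0.12 with the TPM of near-identical copies added to each gene. The mitochondrial ribosomal proteins, 77 nuclear genes for the ribosome of mitochondria, had medians of 12.8 and 14.4 TPM, lower than the core by 4.94 ± 0.11 (SD, n = 2) on the log2(TPM + 1) scale.

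Most core genes lay near the core median, though no other family was measured in this way. In each library 60 of 77 were within 2-fold of it. The lower and upper quartiles were 291.5 and 574.1 TPM in replicate 1 and 333.3 and 699.7 in replicate 2. The order of core genes was shared by the libraries, with a Pearson r of 0.95 for log2 TPM and a Spearman rho of 0.93. Both were taken over 77 genes that have the same annotation and lengths in both libraries. The 10 highest held 6 large subunit genes, 3 small subunit genes and 1 of the stalk, and the 10 lowest held 8 and 2.

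Among the highest, Rpl36a, a large subunit protein near the exit site for transfer RNA, was at 1195 and 1951 TPM. Rps3a1, which lies at the exit side of the small subunit, was at 1262 and 1634 TPM. Rpl26, which also binds the p53 messenger RNA, was at 1301 and 1376 TPM. These 3 did not separate, since their ranges overlap. Rps7, an inhibitor of Mdm2 when free of the ribosome, was at 1103 and 1233 TPM, and Rps24, needed for early processing of the 18S ribosomal RNA precursor, at 920.1 and 1184 TPM. Rpl32 was at 845.1 and 1053 TPM, Rpl13a at 912.2 and 856.0 TPM, and Rpl7 at 780.8 and 945.4 TPM. Rpl41, the smallest protein of the ribosome, was at 874.4 and 849.7 TPM. The last 4 overlap in range and have no order. The genes are drawn in the plot of levels by gene.

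**Figure D2:**
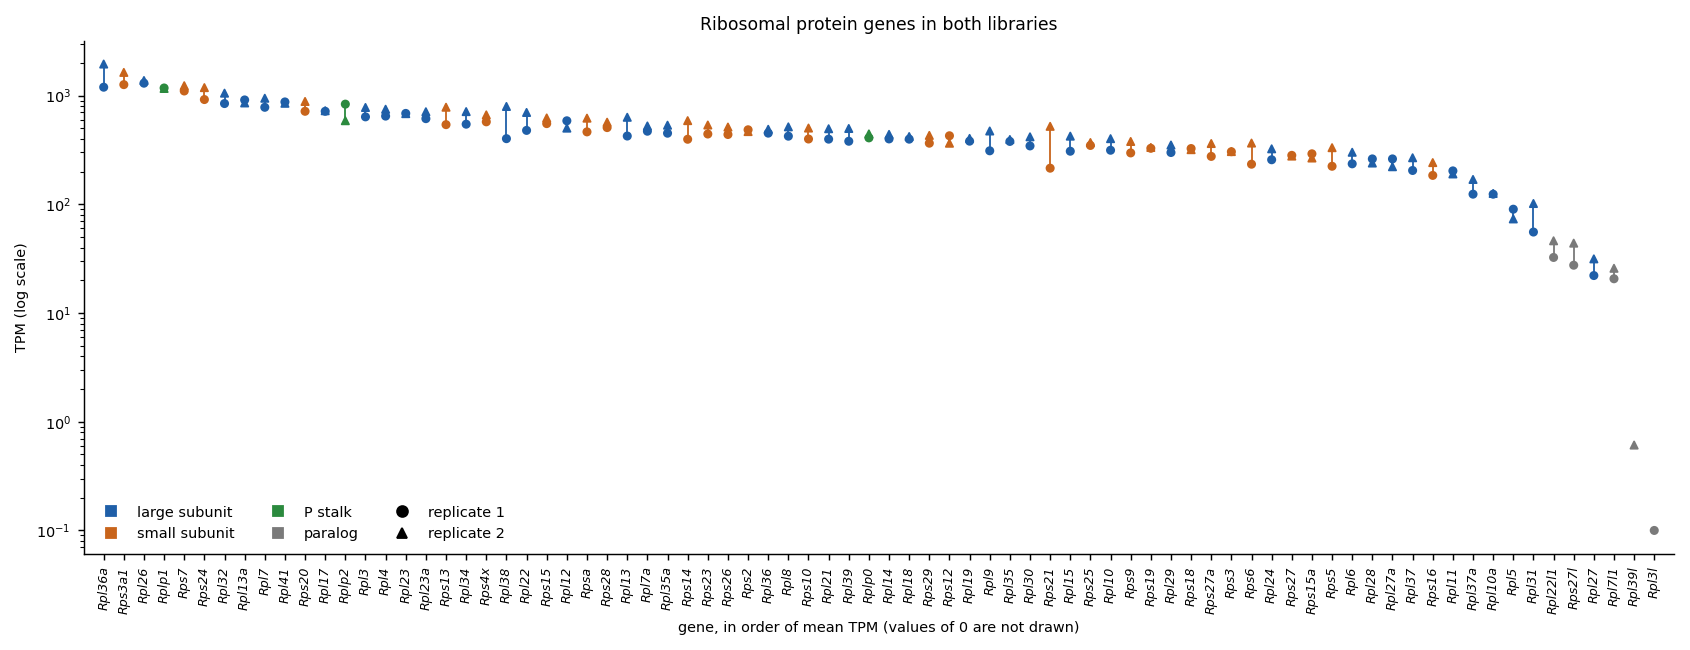
TPM (log axis) of the reported ribosomal protein genes in replicate 1 (circles) and replicate 2 (triangles), joined by a line and ordered by mean; colours mark the large subunit, small subunit, P stalk and paralogs. Most core genes form a shallow slope, and Rpl10a, Rpl5, Rpl31 and Rpl27 fall away from its lower end, the last into the range of the paralogs; values of 0, and Rpl10l, which was at 0 in both, are not drawn.

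The P stalk genes were separated from each other in both libraries. Rplp1 was at 1175 and 1163 TPM, Rplp2 at 834.6 and 587.4 TPM, and Rplp0, the base of the stalk, at 408.6 and 444.1 TPM. The ranges did not overlap. Each stalk holds several copies of the P1 and P2 proteins on 1 copy of P0, the exception to the rule of 1 copy per ribosome. The level of Rplp1 was 2.88 and 2.62 times that of Rplp0, and that of Rplp2 2.04 and 1.32 times. Rpl36a, Rps3a1 and Rpl26, which are not of the stalk, were above Rplp1 in both libraries. Whether RNA level follows the number of protein copies was not tested.

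At the other end of the order, Rpl27 was at 22.1 and 31.5 TPM, Rpl31 at 55.6 and 101.7 TPM, and Rpl5 at 90.2 and 73.4 TPM. Rpl31 and Rpl5 overlapped, and Rpl27 lay below both. These 3 are the core genes that missed 100 TPM in a library. Rpl10a was at 123.9 and 125.8 TPM, Rpl37a at 124.0 and 169.2 TPM, and Rpl11 at 203.0 and 190.2 TPM. Rps16 was at 184.5 and 241.9 TPM and Rpl37 at 204.8 and 268.0 TPM. The fold between the highest and lowest core gene was 58.8 in replicate 1 and 61.99 in replicate 2.

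Several of the lowest genes had most of their counts on near-identical copies. A copy was defined as a gene that is annotated as a pseudogene, or carries a pseudogene symbol (-ps), with at least 90% identity to a member over at least 100 nt and at least 50% of its own length, and was given to the member it matched best. There were 753 copies, of which 748 are pseudogenes in GENCODE M21 and 5, Rps12-ps3 among them, are classed there as protein coding. They were found with at least 1 for 78 of 83 members, a median of 6 per core gene, and a maximum of 59 for Rpl21. Of these copies, 372 in replicate 1 and 360 in replicate 2 had at least 1 expected count. Because an estimator divides shared reads, a low count does not show that a copy is silent, nor a high count that it is transcribed. Together the copies held 560286 counts in replicate 1 and 532638 in replicate 2, beside 2911139 and 2491510 for the members, or 16.1% and 17.6% of the sum. These counts were concentrated on a few genes. The median core gene had 4.69% and 4.11% of its summed counts on copies, 23 and 24 core genes had under 1%, and 5 genes had over 50% in both libraries.

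Those 5 were Rpl27, Rpl5, Rps6, Rpl31 and Rps12. Rpl5, which with Rpl11 carries the 5S ribosomal RNA, had 20630 and 11638 expected counts, while its copy Gm15500 had 158519 and 166863, so that copies held 88.5% and 93.5%. Gm15500 lies at chr7:114705217-114706235 on the minus strand (GRCm38, GENCODE M21), is annotated as a transcribed processed pseudogene, and matches Rpl5 at 100.0% over 1018 nt. Rpl27 had 1644 and 1658 counts, and its copies, led by Rpl27-ps3 with 19085 and 30624, held 93.7% and 94.9%. Its second copy, Gm11518, had 5421 counts in replicate 1 and 3 in replicate 2. Rps6 had 23442 and 27008 counts and its copy Rps6-ps4 (chr2:75191073-75191822) had 86488 and 61470. Rpl31 had 5655 and 7851 counts against 14675 and 13293 for Rpl31-ps8 (chr15:90764279-90764656). In all 5 genes the copies outnumbered the gene in each library, as the plot of counts by gene and copies shows.

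The coding sequences of these pairs were the same letter for letter. The first 60 coding bases of Rpl5 and the matching stretch of Gm15500 are shown, in lower case because no base differs.
Rpl5: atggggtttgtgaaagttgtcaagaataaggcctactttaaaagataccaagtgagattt
Gm15500: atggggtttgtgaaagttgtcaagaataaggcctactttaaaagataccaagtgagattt
Over the whole coding sequence of 891 bases there were 0 differing bases. The same held for Rps6 and Rps6-ps4 over 747 bases, Rpl27 and Rpl27-ps3 over 408, Rpl31 and Rpl31-ps8 over 375, and Rps12 and both Rps12-ps3 and Rps12l1 over 396. All 5 genes with over 50% of their counts on copies thus had a copy with an identical coding sequence, and 11 of the other core genes compared had one too. Among these 11, copies held from 0.14% and 0.07% of the summed counts in Rpl38 to 28.21% and 30.65% in Rpl27a. An identical copy therefore did not always go with a large share. Rpl10a was not compared, since no coding sequence was at hand for it. Its copy Rpl10a-ps1 matched its transcript at 100.0% over 654 nt, with 10089 and 9082 counts, and copies held 45.9% and 50.3% of its summed counts. A read within such a stretch fits gene and copy equally, and only reads that reach untranslated ends or introns can carry letters that divide them. Not all untranslated bases do so: the match of Gm15500 to Rpl5 covered 1018 of its 1019 nt, more than the 891 coding bases. For Rps12, the deposited tables held a single transcript, with a coding sequence of 411 bases where the principal GENCODE M21 model has 396. Rps12 had 18407 and 10718 counts, and its 2 leading copies had 11699 and 13692 (Rps12-ps3) and 8682 and 14683 (Rps12l1).

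**Figure D3:**
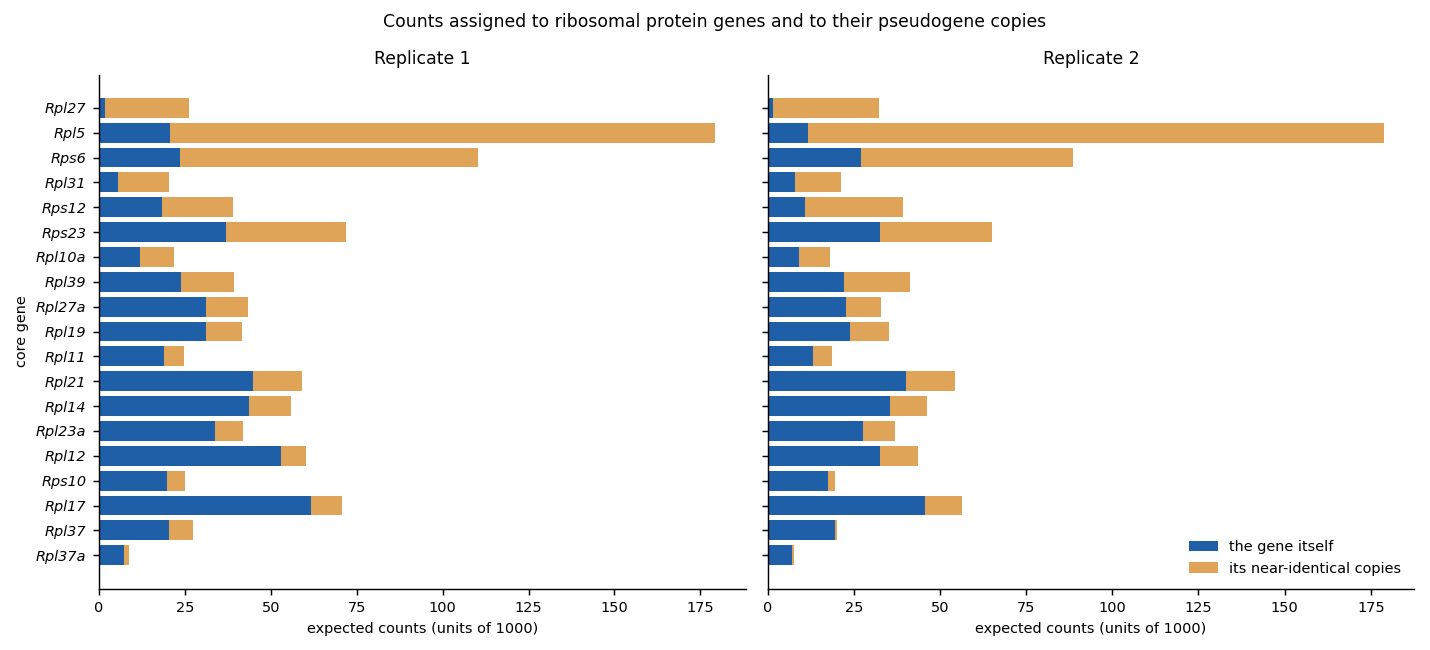
Expected counts, in units of 1000, assigned to 19 of the 20 core genes with the largest share on copies (blue) and to their near-identical copies (orange), in replicate 1 (left) and replicate 2 (right). In Rpl27, Rpl5, Rps6, Rpl31 and Rps12 the orange part is longer than the blue part in both libraries; Rpl5 with Gm15500 has the longest bars.

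With the TPM of copies added to their gene, the lowest core gene was Rpl37a, at 181.2 and 211.9 TPM, and the fold between the highest and the lowest fell to 8.11 and 9.30. Rpl5 stood at 1451 and 1969 TPM in place of 90.2 and 73.4, Rpl27 at 627.9 and 1079 TPM, Rpl31 at 563.2 and 820.7 TPM and Rps6 at 1287 and 1394 TPM in place of 233.9 and 365.9. The SD of log2(TPM + 1) over core genes was 0.97 as deposited and 0.77 with copies. Such sums give copies shorter than their gene a high TPM, as with Rpl39-ps, which is 151 nt long, so they are upper values. In the 37 core genes with under 5% of counts on copies in both libraries the median as deposited was 451.6 TPM in replicate 1 and 588.4 TPM in replicate 2, with an SD of log2(TPM + 1) of 0.72 and 0.69. The highest of these were Rpl26, at 1301 TPM in replicate 1, and Rpl36a, at 1951 TPM in replicate 2.

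The deposited credibility intervals were narrow for these genes too. The upper bound was 1.03 times the lower for the median core gene in each library, and no core gene exceeded 1.5 times. Rpl27 had the widest among core genes, 20.6 to 23.4 TPM in replicate 1 and 29.5 to 33.2 TPM in replicate 2. The bounds for Rpl5 were 87.4 to 91.3 and 70.8 to 74.6 TPM. The other core genes among the 10 widest intervals were Rps27, Rpl31, Rpl28 and Rpl10a, at 1.055 to 1.113 times. The intervals of the replicates did not overlap for Rpl27, Rpl5 or Rpl31, and each interval covers the counts of 1 library only. In 23 and 18 core genes the TPM lay above its own interval, Rpl36a among them, at 1195 TPM with bounds of 1172 and 1192 in replicate 1. The share over all genes was not taken, so this is not shown to be particular to the family.

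The 6 paralogs were low beside the core genes they resemble, and 3 of them had 0 counts in at least 1 library and at most 23 in the other. Identities are of coding sequences. Rpl22l1, which can take the place of Rpl22, shared 70.2% of bases with it and was at 32.5 and 46.2 TPM, where Rpl22 was at 478.6 and 699.7 TPM. Rps27l, a target of p53, was at 27.5 and 43.9 TPM, and Rpl7l1, which works in assembly of the large subunit, at 20.7 and 25.8 TPM beside 780.8 and 945.4 for Rpl7. Rpl22l1 and Rps27l overlapped, and both lay above Rpl7l1. Rpl39l and Rpl10l, known from male germ cells in which the X chromosome is silenced, had 0 and 23 counts and 0 and 0 counts. Rpl3l, known from heart and skeletal muscle, had 14 and 0. A count of 0 allows up to 0.0606 CPM (counts scaled to library size) in replicate 1 and 0.0678 CPM in replicate 2, from counting error alone. The X-linked partners were well expressed, with Rpl39 at 380.3 and 498.2 TPM and Rpl10 at 314.4 and 401.7 TPM. Core and paralog medians differed by 6.30 ± 0.08 (SD, n = 2) on the log2(TPM + 1) scale, and by 4.21 without the paralogs under 0.1 TPM in both libraries.

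Fau, Rpl36al and Rps27rt are ribosomal protein genes outside the naming rule, and they were at core level. Fau, which encodes Rps30 behind a ubiquitin-like protein, was at 287.4 and 243.1 TPM. Rps27a, a member made as a fusion with ubiquitin, was at 275.9 and 362.3 TPM. Rpl36al, 87.7% identical to Rpl36a, was at 303.4 and 339.9 TPM, and Rpl36a exceeded it 3.94-fold and 5.74-fold. Rps27rt, a retrogene, was at 310.3 and 342.5 TPM, above Rps27 in both libraries, at 282.1 and 277.7 TPM. The first 60 coding bases of Rps27, Rps27rt and Rps27l are shown because they set a copy that sequence cannot separate beside one that it can; capitals mark the positions at which Rps27l differs.
Rps27: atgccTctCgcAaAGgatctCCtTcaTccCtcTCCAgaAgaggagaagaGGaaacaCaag
Rps27rt: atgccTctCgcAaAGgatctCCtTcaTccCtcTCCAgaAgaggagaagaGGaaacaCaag
Rps27l: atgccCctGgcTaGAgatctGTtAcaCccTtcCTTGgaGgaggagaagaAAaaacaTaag
Rps27l differs at 18 of the 60 bases and Rps27rt at 0, and over all 252 coding bases Rps27rt is 100.0% identical. The levels of Rps27 and Rps27rt therefore cannot be told apart in reads from coding sequence, and their sum was 592.4 and 620.2 TPM.

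Genes linked to Diamond-Blackfan anaemia in people were at the level of the family. The list held 19 core genes, with a median of 378.9 and 423.6 TPM beside 399.6 and 495.6 for all core genes. It ran from Rpl27, at 22.1 and 31.5 TPM, to Rpl26, at 1301 and 1376 TPM. Rps19, the gene most often affected, was at 327.5 and 333.3 TPM. Rps26 was at 438.8 and 513.6 TPM, Rps10 at 398.9 and 502.9 TPM, Rps28 at 508.0 and 569.3 TPM and Rps29 at 365.0 and 430.3 TPM. The list contains Rpl5, Rpl27 and Rpl31, whose levels rest on how counts were divided with copies. Rpl5 and Rpl11, which as a 5S particle bind Mdm2 when ribosome assembly fails, are both among the 10 lowest. With copies added, Rpl5 was at 1451 and 1969 TPM and Rpl11 at 318.1 and 342.6 TPM.

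Other genes listed as carrying TOP tracts, many of them translation factors, had a lower median than the core, 174.2 and 202.9 TPM. Their start sites were not examined, and the median covers the 16 of 17 listed genes that had a symbol match. They ranged from Eif3f, a subunit of the initiation factor that joins the small subunit to the messenger RNA, at 13.9 and 12.7 TPM, to the elongation factor gene Eef1a1, at 1838 and 2572 TPM. The 7 genes listed as chaperones of ribosomal proteins had a median of 11.9 and 13.95 TPM. Among them Grwd1, which escorts Rpl3, was at 5.37 and 5.02 TPM, and Tsr2, which escorts Rps26, at 9.84 and 9.60 TPM. The regulators Larp1 (13.9 and 13.5 TPM), Mtor (3.51 and 3.89 TPM), Myc (11.8 and 13.2 TPM) and Mdm2 (9.40 and 10.7 TPM) were all below the core median. So were most genes, since 1.24% of nuclear protein-coding genes were at or above 100 TPM in both libraries. Mtor was below the median of expressed protein-coding genes (6.47 and 7.74 TPM) in each library, and Larp1, Myc and Mdm2 were above it.

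Most core genes were read from messenger RNA models, with a few large exceptions. GENCODE M21 classes other than protein coding, such as retained intron, held 0.90% and 0.86% of TPM in the median core gene, and 0.0% and 0.59% in the median expressed protein-coding gene. In 11 core genes of each library (14.3%) they held over 10%, a share passed by 33.3% of 8764 expressed protein-coding genes in replicate 1 and 33.8% in replicate 2. Rps20 had 97.2% and 97.4% of its TPM in such models, almost all in 1 retained-intron transcript of 582 nt at 665.0 and 839.4 TPM. Rpl12 had 88.1% and 90.9%, mainly in a 729-nt transcript classed for nonsense-mediated decay at 505.2 and 445.5 TPM. In Rpl23 the share was 63.2% and 57.0%. The values of Rps20, Rpl12 and Rpl23 were close in both libraries, whereas Rpl35 had 61.7% and 36.0% and Rps2 had 52.5% and 28.6%. Rps18, chosen after its values were seen, had 38.4% and 7.56%, the widest gap between libraries in the plot of transcript shares. These short models overlap the coding transcript of the same gene, so the division within a gene is an estimate, and whether these RNAs are translated was not measured. For Rpl13a, 84.0% and 79.1% of TPM lay in transcripts that were not matched to M21 and have no class here.

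**Figure D4:**
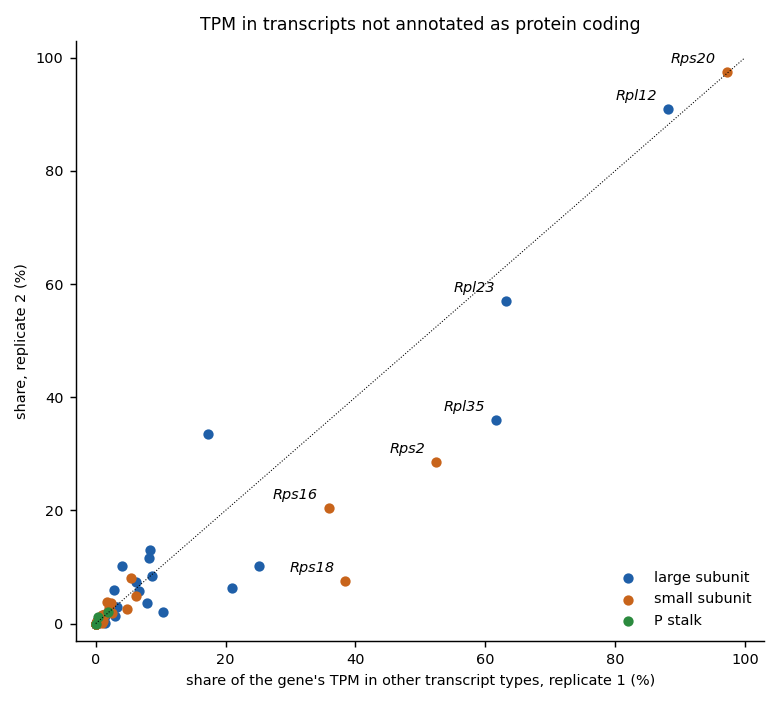
Share of each core gene's TPM (%) in transcripts not annotated as protein coding, replicate 1 (horizontal axis) against replicate 2 (vertical axis), coloured by subunit; the dotted line marks equal shares. Most of the 77 genes lie near 0, Rps20 and Rpl12 lie near the upper end in both libraries, and Rpl35, Rps2, Rps16 and Rps18 lie below the line.

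Ribosomal protein genes are hosts of snoRNAs, small RNAs that guide modification of ribosomal RNA and are cut from introns. A snoRNA gene lay within 30 of 77 core genes on the same strand (39.0%), against 195 of 8764 expressed protein-coding genes (2.23%), and the 30 held 58 snoRNA genes. Rpl4 held the most, 5, and Rpl13a held 4. Core genes with a snoRNA had a median of 467.1 and 513.9 TPM, and the 47 without had 396.7 and 444.1 TPM. The core genes lay on 19 chromosomes, with 14 on chromosome 7, 4 on X and none on Y. Those on X were Rpl36a, Rps4x, Rpl10 and Rpl39, of which Rpl36a was the highest core gene by mean.

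Between the libraries, core genes were slightly lower in replicate 2 by counts. The median log2 CPM difference, replicate 2 minus replicate 1, was -0.12 over 77 core genes and 0.00 over 8192 protein-coding genes of at least 10 CPM. Of the core genes, 50 (64.9%) were below 0, against 49.5% of those 8192. On TPM rescaled over nuclear protein-coding genes the median was -0.02. The size of differences was like that of other genes, with a median absolute value of 0.19 against 0.18. Higher by over 0.5 in replicate 2 were 2 core genes (2.60%), against 4.35% of protein-coding genes. Lower by over 0.5 were 5 core genes (6.49%), against 5.19%.

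Those higher were Rps21, at 215.0 and 521.4 TPM with a log2 CPM difference of 0.78, and Rpl31, with 0.59. Rpl38, a short large subunit gene known for patterning of the axial skeleton, followed with 0.45, and its TPM was 401.8 and 794.2. Those lower were Rplp2 (-0.98), Rps27 (-0.80), Rpl5 (-0.71), Rps12 (-0.66) and Rpl12 (-0.58). With the counts of copies added, 3 core genes remained past 0.5 in either direction: Rplp2 at -0.98, Rps27 at -0.80 and Rps21 at 0.78. The copies do not include the retrogene Rps27rt, whose coding sequence is that of Rps27. With its counts added too, an alternative chosen after seeing the data, Rps27 stood at -0.49 and 2 core genes were past 0.5. The differences of Rpl5, Rps12, Rpl31 and Rpl12 became 0.11, 0.13, 0.18 and -0.35 with copies. Other differences widened: that of Rpl27 went from 0.13 to 0.42 and that of Rpl37 from 0.06 to -0.33. The core median stayed at -0.12. The expected counts of Rpl5 and Rps12 were lower in replicate 2, and those of Gm15500, Rps12-ps3 and Rps12l1 were higher.

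The part of fragment length and base composition in these differences was not tested. In the labels the size range starts at 200 in both libraries and ends at 712 in replicate 1 but 1000 in replicate 2, without units. The effective length of Rps27, which is 255 nt long in the deposited tables, was 82.7 and 57.5 nt, so its TPM was 282.1 and 277.7 while its counts were 3363 and 1784. For Rps21 the effective length was 218.5 and 184.2 nt. Both are short, and their log2 CPM differences had opposite signs. Across core genes the log2 CPM difference had a Pearson r of 0.02 with log2 length. Its r was -0.19 with GC content of the leading transcript, and across the 8192 genes -0.38. The third of core genes with the lowest GC had a median difference of -0.08 and the third with the highest -0.24, over 26 genes each.

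**Figure D5:**
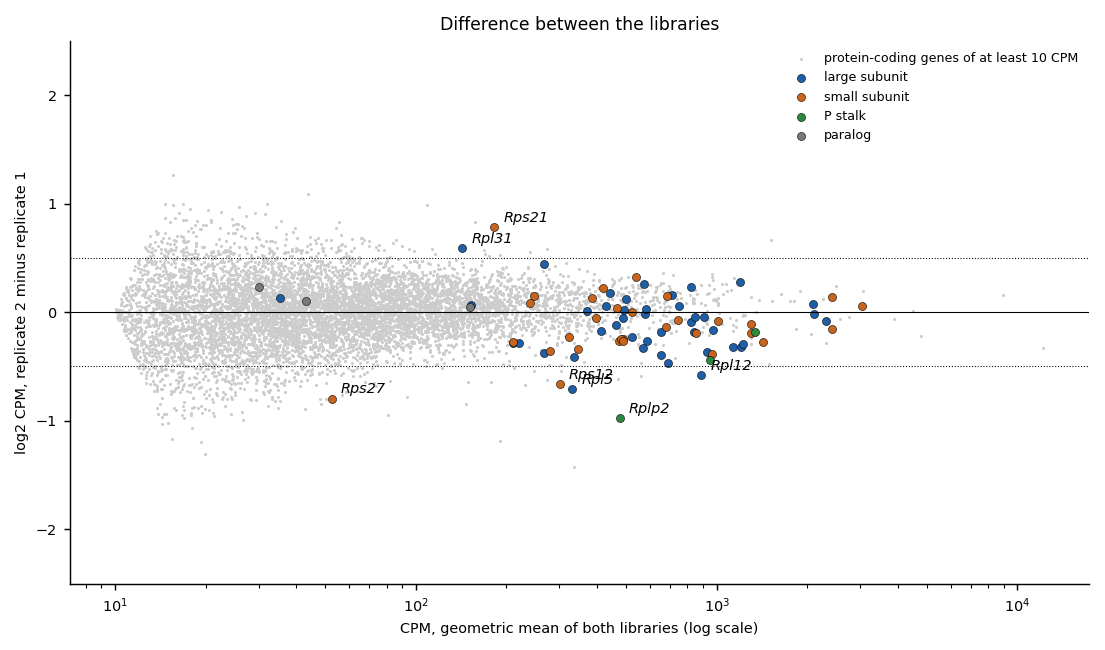
Log2 CPM of replicate 2 minus replicate 1 against mean CPM (log axis) for 8192 protein-coding genes of at least 10 CPM (grey) and the ribosomal protein genes (coloured by group); dotted lines mark 0.5 in either direction. Rps21 and Rpl31 lie above the upper line, and Rplp2, Rps27, Rpl5, Rps12 and Rpl12 lie below the lower one.

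The libraries held 49473848 and 44260902 expected counts. All 7 markers of granulocyte-monocyte progenitors were present, from Kit at 20.4 and 23.8 TPM to Mpo at 2552 and 2288 TPM. B cell markers were at or under 0.02 TPM and T cell markers at or under 0.15 TPM. The highest erythroid marker, Car1, was at 1.07 and 3.33 TPM. Of 5 markers of stroma and endothelium, Pecam1 was at 9.16 and 10.9 TPM and Col1a1 and Cdh5 at 0.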

How the data were processed

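Per the labels' protocols, total RNA was depleted of ribosomal RNA and made into libraries with a ScriptSeq low-input kit. Per the deposited metadata the assembly was mm10 and the annotation GENCODE M4. Names of aligner and quantifier were not given in the sources used here. Deposited tables give the authors' expected counts, in which reads shared among features are divided by an estimator, together with TPM scaled over all features and FPKM. They also hold posterior means, credibility bounds of TPM (deposited with no stated level) and, per transcript, the deposited percent of its gene. Names, classes and sequences came from GENCODE M21 by identifier, which matched 42462 of 43346 genes; promoters came from RefSeq on GRCm38.p6. The labels do not tie the libraries to separate animals, so the spread between them may be technical.

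Expected counts were rounded and scaled by TMM in edgeR 4.0.16 (R 4.3.3; factors 0.985 and 1.015; 12855 genes kept by filterByExpr), and differences between libraries were taken on log2 CPM (prior count 2). The log2 CPM calculation was checked on simulated counts of these 2 libraries: over 12836 genes, 200 of them changed by a log2 of 1 up or down, the recovered medians were 1.00 and -1.00, and 0.00 in the others. Copies were found with BLAST 2.17.0, and coding identities were aligned with Biopython 1.88. Ribosomal protein genes, lists and alternatives were chosen with earlier results of these data known. Genes named are the 10 highest and 10 lowest core genes, the P stalk, the paralogs, 4 genes outside the symbol rule, the 5S and Diamond-Blackfan lists, the 10 widest intervals, up to 10 in each direction between libraries, and the 5 with the largest share in other transcript classes; copies, snoRNA hosts, list members, X-linked genes and the genes shown by sequence were named after their values were seen. Alternatives covered the unit, pseudocount, scaling, filter, summary, copies, start annotation and each library left out. Some genes the rule names are not reported here, in text or figures. Rps4l, a pseudogene in M21, was not a member.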

Additional observations from a re-analysis of the deposited data

How the results depend on the processing

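Of 63 alternative values, 50 were labelled the same, and no called direction turned. The same meant within the spread between libraries, within 1.5 times for counts, and within a fixed cut for the median difference between libraries. Part of this was fixed in advance. With 2 libraries, leaving 1 out always gives a value within their SD of the mean. No core gene had a wide credibility interval, so leaving out wide intervals changed nothing. No paired analysis was possible because the 2 libraries form a single group. Adding copies, which for the median TPM and for the count past 0.5 was chosen after seeing the data, moved the core median from 447.6 to 560.0 TPM, the members' share of nuclear protein-coding TPM from 18.9% to 23.1%, their share of counts from 6.75% to 8.01%, the spread among core genes from 0.97 to 0.77 (log2), the small minus large subunit difference from 0.01 to -0.12, and the number past 0.5 between libraries from 7 to 3, or to 2 with the counts of Rps27rt added to Rps27 as well, also chosen after seeing the data. With means in place of medians the subunits differed by 0.15. The difference between core and paralogs, 6.30, was 7.24 with a pseudocount of 0.1, 7.04 on rescaled TPM and 4.21 without paralogs under 0.1 TPM in both libraries. On rescaled TPM the core median between libraries was -0.023 in place of -0.12. A run over the start base itself was held by 15 of 57 core genes in place of 26. A run within 10 bases of the GENCODE start, added after seeing the data, was held by 20 of 49. Leaving out either library gave a core median of 399.6 to 495.6 TPM, shares of 18.73% to 19.07% of TPM and 6.48% to 7.02% of counts, a spread of 0.96 to 0.97, a small minus large difference of -0.01 to 0.03, core minus paralog differences of 6.24 to 6.36 and core minus mitochondrial differences of 4.86 to 5.02, and 77 core genes at or above 1 TPM. The cause of these movements was not tested beyond the values given. An SD over 2 libraries is of low precision, and depth sets the limit that a count of 0 allows for the lowest paralogs.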
